A study of Homo sapiens with 42 samples.

Results

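The loops described here join 10 kb stretches of human chromosome 19 around JUND and were measured by in situ Hi-C in K562 cells. They are the loops of the deposited table with at least 1 anchor start between positions 18000000 and 18600000 of chromosome 19 (build hg38). The rule found 17 of 33914 loops, and chromosome 19 holds 639 others. K562 is an established human leukemia line, used here with wild-type genotype and treated with 25 nM PMA, a phorbol ester that activates protein kinase C and drives these cells toward a megakaryocyte-like state. The 3 groups are 0 h, 6 h and 72 h of PMA, with the medium replaced on the way to 72 h. Each time point has 14 samples from 4 biological replicates, summed here into 12 libraries of 736929 to 1472197 loop contacts. The labelled 0 h samples also carry the PMA label, with a time of 0 h, and serve as the starting point.

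Replicates 3 and 4 were close to counting noise at every time point (chi-square test over the tested loops). The chi-square per degree of freedom was 1.02 at 0 h (p = 0.0253), 1.02 at 6 h (p = 0.00621) and 1 at 72 h (p = 0.367). Other pairs within a time point gave 1.06 to 1.27. Because of its p-value, only the 72 h pair was averaged and counted as 1 sample in means. This gave n = 3 at 72 h and n = 4 at 0 h and 6 h. The values per degree of freedom were almost equal, so n = 4 may also count too many samples. The edgeR tests kept all 12 libraries apart. The labels number the replicates without saying whether they came from separate cultures, so p-values measure only the spread between these libraries. No expression was measured, and the cell state could not be checked against marker genes.

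Hi-C joins DNA ends that lie close together in fixed nuclei, and a loop is a pair of anchors that touch more often than their surroundings. Many such loops form when cohesin extrudes chromatin until it meets CTCF, and others join promoters and enhancers. JUND encodes a basic leucine zipper protein of the JUN family, which pairs with FOS family proteins to form AP-1, a transcription factor that binds TPA response elements, the DNA motif named after this same phorbol ester (TPA is another name for PMA). LSM4 encodes an Sm-like protein of the rings that act in splicing and mRNA decay, and SSBP4 encodes a member of the single-stranded DNA binding protein family, whose relatives act with LIM domain binding proteins.

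JUND (gene ID 3727) lies on the minus strand of chromosome 19 from 18279694 to 18281622 (RefSeq, GRCh38.p14) and is 1929 bp long. The border between 2 neighbouring anchors cuts it. Its last 307 bases lie in the anchor from 18270001 to 18280000, which also holds the start of IQCN, an IQ motif gene. The other 1622 bases, with the start of the gene, lie in the anchor from 18280001 to 18290000. LSM4 (gene ID 25804) runs from 18306236 to 18323076 on the minus strand, and its start lies in the anchor from 18320001 to 18330000. SSBP4 (gene ID 170463) runs from 18402725 to 18434562, and its lower end lies in the anchor from 18400001 to 18410000.

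The 250 bases before the starts of the 3 genes whose promoters sit in the JUND and LSM4 anchors are shown because they are promoters inside anchors of the JUND loops. They come from RefSeq (GRCh38.p14), at chr19:18281623-18281872 for JUND, chr19:18274453-18274702 for IQCN and chr19:18323077-18323326 for LSM4, all read along the minus strand. Capitals mark a match to the cyclic AMP response element TGACGTCA or to the AP-1 site TGACTCA on either strand.
JUND: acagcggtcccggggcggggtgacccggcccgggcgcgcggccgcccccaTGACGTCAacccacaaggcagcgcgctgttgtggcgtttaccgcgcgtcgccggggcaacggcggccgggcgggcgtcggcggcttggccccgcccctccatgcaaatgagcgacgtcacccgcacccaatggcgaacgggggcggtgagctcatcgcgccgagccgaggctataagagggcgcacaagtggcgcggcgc
IQCN: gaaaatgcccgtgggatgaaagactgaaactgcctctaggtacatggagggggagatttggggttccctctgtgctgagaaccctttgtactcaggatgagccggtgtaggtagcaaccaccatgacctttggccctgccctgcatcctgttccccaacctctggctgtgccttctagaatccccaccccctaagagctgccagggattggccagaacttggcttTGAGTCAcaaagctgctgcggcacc
LSM4: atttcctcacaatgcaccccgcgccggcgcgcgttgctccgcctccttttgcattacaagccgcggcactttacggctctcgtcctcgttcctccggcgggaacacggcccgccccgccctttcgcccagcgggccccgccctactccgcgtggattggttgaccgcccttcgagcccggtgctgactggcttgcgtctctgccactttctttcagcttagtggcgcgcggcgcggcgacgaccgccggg
The JUND promoter held 1 TGACGTCA, which began 200 bases before the gene's start, and no AP-1 match. The IQCN promoter held 1 AP-1 match, 25 bases before its start, and the LSM4 promoter held neither. Of 35116 RefSeq promoters of the same 250 bases, 1.65% held TGACGTCA and 4.2% held TGACTCA on either strand. GC content was 74.8% for JUND, 68.4% for LSM4 and 56% for IQCN. These matches describe the letters of a short window and not binding, and the rest of each anchor was not searched. No promoter entry was found for SSBP4, which lies at the far anchor of a JUND loop, so its promoter was not searched either.

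**Figure D1:**
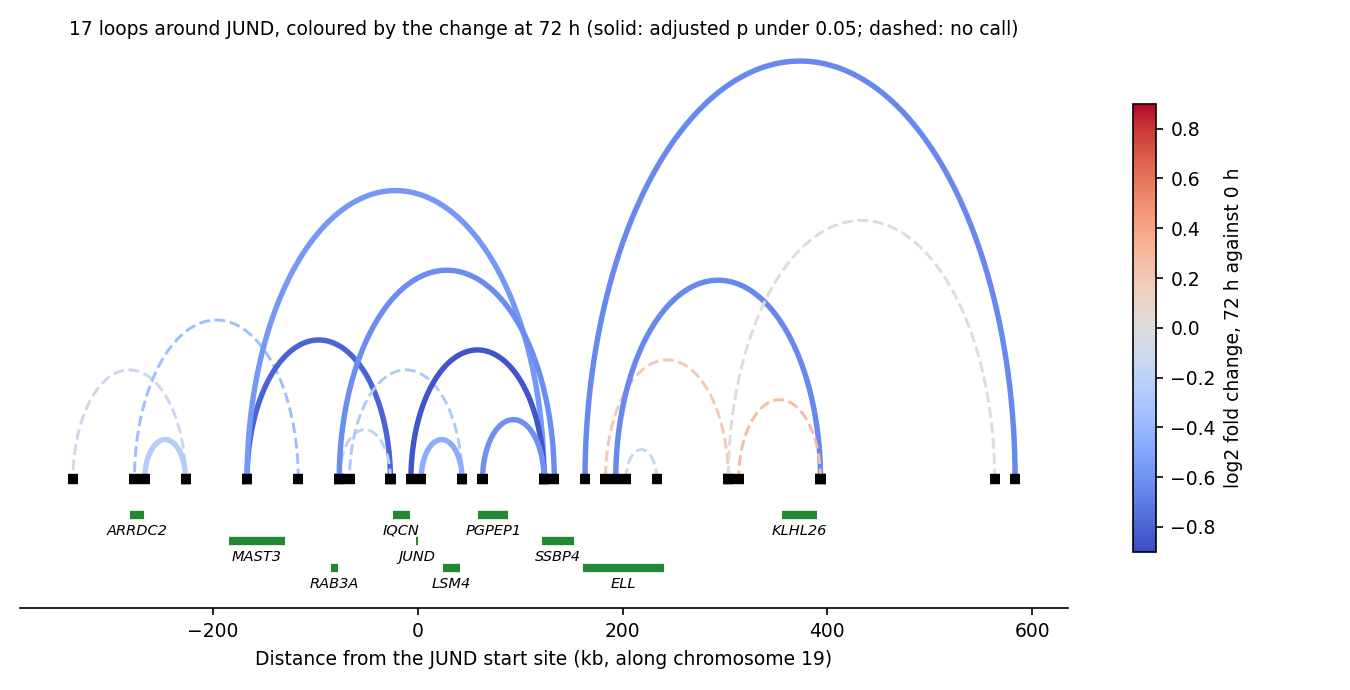
Map of the 17 loops, drawn as arcs over distance from the start of JUND in kb, with the named genes below; the colour gives the log2 fold change from 0 h to 72 h and the arc height only the loop's length, with solid arcs where the edgeR adjusted p was under 0.05. The loops between JUND, SSBP4 and the region left of them are on the side of lower contact at 72 h, and the REX1BD to KLHL26 loop at the right is the one with the highest change, 0.27.

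All 17 loops passed the filter on low counts. They spanned 30 to 420 kb, with a median of 120 kb against 290 kb over all tested loops, and 12 had both anchors in the window. They used 25 distinct anchors, of which 8 served more than 1 loop. An outer end of a protein-coding gene lies in 16 of these anchors. Of the 17 loops, 16 had such an end at 1 anchor or both, 8 of them at both.

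The loops at JUND became weaker during treatment. Normalized counts, given throughout, are contacts per 1000000 contacts in tested loops of a library after TMM scaling. They average over all cells, so that fewer cells with a loop and a less frequent contact per cell cannot be told apart.

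The loop from the end of JUND and the start of IQCN to SSBP4 (loop30780 in the deposited table) spans 130 kb (anchors starting at 18270001 and 18400001). Its normalized counts were 138, 98.7, 146 and 125 in the 0 h replicates 1 to 4, then 75.5, 89.7, 103 and 91.7 at 6 h, and 61.9, 62.2, 81.1 and 71.4 at 72 h. Every 72 h library lay below every 0 h library, and the 6 h libraries overlapped both groups. The mean fell from 127 ± 20 (SD, n = 4) through 90.1 ± 11 (SD, n = 4) to 66.8 ± 8.2 (SD, n = 3). The log2 fold change was -0.50 (SE 0.12) at 6 h, with an edgeR quasi-likelihood adjusted p of 0.00251, and -0.86 (SE 0.12) at 72 h, with an adjusted p of 1.12e-09. From 6 h to 72 h it was -0.36 (SE 0.13, edgeR adjusted p = 0.0321), a call that was lost under 10 of 25 alternatives. These were scaling to chromosome 19 loops (log2 fold change -0.21, edgeR adjusted p = 0.221), each pair of replicate numbers alone (0.128 and 0.187), DESeq2 with or without independent filtering, and leaving out 6 h replicate 2, 3 or 4 or 72 h replicate 1 or 2. At 72 h the fitted level was 0.552 of the level at 0 h.

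The loop from the start of JUND to the start of LSM4 (loop30781) spans 40 kb (anchors starting at 18280001 and 18320001). It gave 216, 171, 225 and 231 in the 0 h libraries, 160, 151, 205 and 212 at 6 h, and 158, 150, 159 and 141 at 72 h. The 6 h libraries overlapped both other groups, and all 72 h libraries were below all 0 h libraries. Means were 211 ± 27 (SD, n = 4), 182 ± 31 (SD, n = 4) and 153 ± 4.9 (SD, n = 3). The last SD follows the averaging of 72 h replicates 3 and 4, the highest and lowest libraries of that group. The change passed the test at 72 h (log2 fold change -0.46, SE 0.10, edgeR adjusted p = 6.35e-05). At 6 h it was -0.22 (SE 0.10, edgeR adjusted p = 0.165), and from 6 h to 72 h it was -0.24 (SE 0.10, edgeR adjusted p = 0.0764); neither passed. The step from 6 h to 72 h did pass under 4 of 25 alternatives, among them the replicate block, and the change at 6 h passed without 0 h replicate 2. At 72 h against 0 h the change was -0.27 with a correction for loop length (edgeR adjusted p = 0.0123) and -0.25 when scaled to chromosome 19 loops (edgeR adjusted p = 0.0217).

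The labels part the replicates into numbers 1 and 2, with 3 technical replicates, and numbers 3 and 4, with 2 technical replicates sequenced in 2 runs. Within numbers 1 and 2 the JUND to SSBP4 loop changed by -0.95 at 72 h, and within numbers 3 and 4 by -0.81, past the edgeR threshold in both. The JUND to LSM4 loop gave -0.35 in the first pair of numbers (edgeR adjusted p = 0.0541) and -0.60 in the second (edgeR adjusted p = 3.38e-05). At 6 h the JUND to SSBP4 loop gave -0.54 (edgeR adjusted p = 0.0348) and -0.47 (edgeR adjusted p = 0.102).

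**Figure D2:**
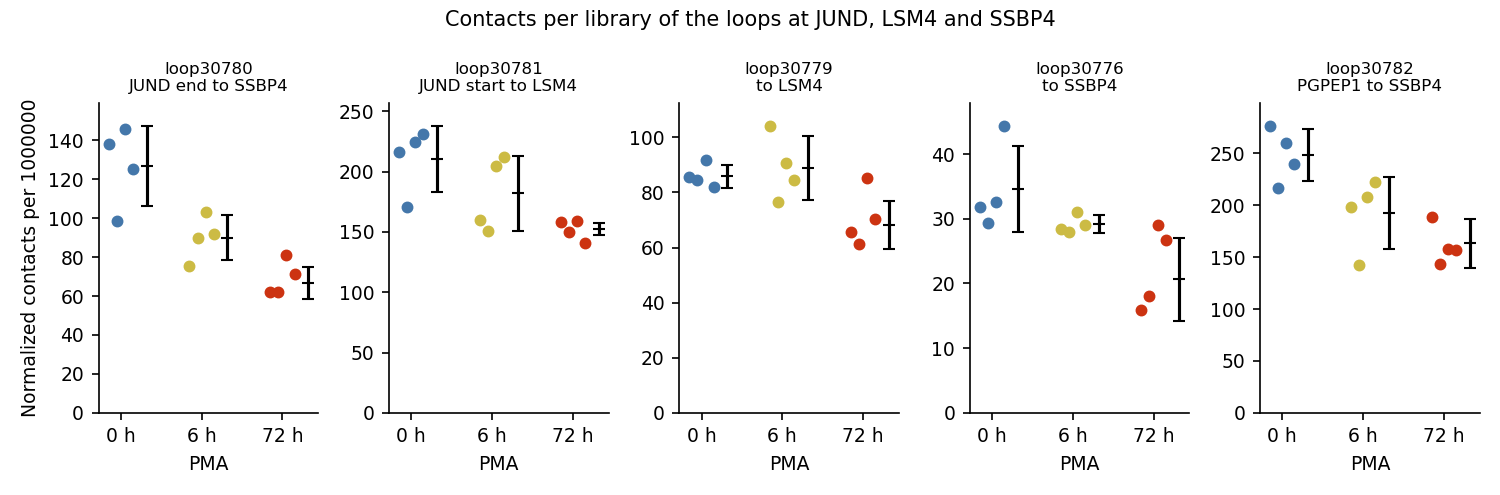
Normalized contact count (contacts per 1000000 in tested loops) of the loops at JUND, LSM4 and SSBP4 in each library at 0, 6 and 72 h; points are libraries and bars are the mean with its SD. The 72 h points of the JUND to SSBP4 loop lie between 61.9 and 81.1, below all 0 h points.

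A second loop at LSM4 did not pass the test against 0 h. This loop30779 joins an anchor without a gene end at 18210001 to the LSM4 start over 110 kb. Its counts were 85.5, 84.5, 91.6 and 81.9 at 0 h, 104, 76.6, 90.6 and 84.4 at 6 h, and 65.5, 61.2, 85.3 and 70.5 at 72 h. The 3 groups overlapped, with 72 h replicate 3 inside the 0 h range. The change from 6 h to 72 h passed the threshold narrowly (log2 fold change -0.33, SE 0.13, edgeR adjusted p = 0.0479), and it was lost under 12 of the 25 alternative settings. Against 0 h the values were 0.05 (SE 0.12) at 6 h and -0.28 (SE 0.12, edgeR adjusted p = 0.0697) at 72 h. The ratio of the 2 loops at LSM4 differed by 0.11 log2 units between 0 h and 72 h (exact permutation test, two-sided, p = 0.343), less than its SD of 0.20 among the 0 h libraries. Summed over both loops, the LSM4 anchor held 296 ± 28 normalized contacts at 0 h, 271 ± 33 at 6 h and 221 ± 8.9 at 72 h.

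The SSBP4 anchor took part in 3 loops, more than any other anchor of the window, and all 3 were weaker at 72 h. Their summed contacts fell from 410 ± 45 (SD, n = 4) to 312 ± 40 (SD, n = 4) and 251 ± 24 (SD, n = 3). The strongest, loop30782, joins PGPEP1, which encodes pyroglutamyl-peptidase, to SSBP4 over 60 kb (anchors at 18340001 and 18400001). It gave 276, 217, 260 and 240 at 0 h, 198, 142, 208 and 222 at 6 h, and 189, 143, 158 and 157 at 72 h. At 6 h only replicate 4 rose above the lowest 0 h library, and the 72 h libraries lay below the whole 0 h range. Its log2 fold change was -0.38 at 6 h (SE 0.09, edgeR adjusted p = 0.00472) and -0.61 at 72 h (SE 0.09, edgeR adjusted p = 5.77e-08). The 6 h call was lost under 5 of 25 alternatives: with the length correction (log2 fold change -0.27, edgeR adjusted p = 0.0524), with DESeq2 without independent filtering (adjusted p = 0.0784), without 0 h replicate 1 (edgeR adjusted p = 0.0572), without 6 h replicate 2 (edgeR adjusted p = 0.11) and within replicates 3 and 4 (log2 fold change -0.21, edgeR adjusted p = 0.401).

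The longest of the 3, loop30776, reaches 290 kb to an anchor at 18110001, which lies within MAST3, a serine/threonine kinase gene. The anchor holds no outer end of a gene, but annotated start sites of MAST3 lie in it. The loop had 31.9, 29.4, 32.6 and 44.3 contacts at 0 h, 28.4, 28.0, 31.1 and 29.0 at 6 h, and 15.9, 18.1, 29.1 and 26.8 at 72 h. The 72 h libraries were all below the 0 h range, with 72 h replicate 3 just under the lowest of them. The change at 72 h was -0.57 (SE 0.18, edgeR adjusted p = 0.0105), a call that was lost under 6 of 25 alternatives. Among them were scaling to chromosome 19 loops (edgeR adjusted p = 0.111) and replicates 3 and 4 alone (edgeR adjusted p = 0.199). The others were DESeq2 with or without independent filtering (adjusted p = 0.0551) and leaving out 0 h replicate 4 or 72 h replicate 1.

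The ratios among these loops were also compared. The log2 ratio of the JUND to SSBP4 loop over the PGPEP1 to SSBP4 loop was -0.98 ± 0.13 (SD, n = 4) at 0 h, -1.08 ± 0.32 (SD, n = 4) at 6 h and -1.29 ± 0.29 (SD, n = 3) at 72 h. The difference of -0.31 between 0 h and 72 h did not pass an exact permutation test (two-sided, p = 0.114). Against the longest loop, the log2 ratios differed by 0.15 for the JUND to SSBP4 loop (exact p = 0.514) and by -0.16 for the PGPEP1 to SSBP4 loop (exact p = 0.629), counted as the longest loop over the other. Both differences were smaller than the SD among the 0 h libraries.

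Left of JUND, loop30775, between the anchors at 18110001 and 18250001, fell at both times. The first of these anchors is the one with start sites of MAST3. The second holds ends of PDE4C, a cyclic AMP phosphodiesterase, of CIST1 and of IQCN. Its counts were 70.3, 77.8, 71.5 and 86.4 at 0 h, 56.9, 57.0, 65.1 and 49.5 at 6 h, and 38.0, 41.2, 42.6 and 49.1 at 72 h. None of the 3 groups overlapped. Log2 fold changes were -0.41 at 6 h (SE 0.13, edgeR adjusted p = 0.0437), -0.80 at 72 h (SE 0.14, edgeR adjusted p = 7.87e-07) and -0.39 from 6 h to 72 h (SE 0.15, edgeR adjusted p = 0.0441). The 6 h call was lost under 13 of 25 alternatives and the step from 6 h to 72 h under 11, while the 72 h call was made under all 25.

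The next, loop30778, from RAB3A, a small GTPase of vesicle release, and PDE4C to an anchor at 18410001, inside SSBP4, also weakened. It gave 64.5, 57.9, 57.7 and 73.9 at 0 h and 48.0, 38.3, 48.1 and 56.7 at 6 h, where every library lay below the 0 h range. At 72 h it gave 43.3, 42.2, 41.6 and 35.7. Its change at 72 h was -0.62 (SE 0.14, edgeR adjusted p = 2.66e-04), and at 6 h it was -0.41 (SE 0.14, edgeR adjusted p = 0.0617), which did not pass but did under 3 of 25 alternatives, the replicate block, the batch term and leaving out 6 h replicate 4. From the same RAB3A anchor, loop30777 to PDE4C, CIST1 and IQCN, 50 kb long, had means of 176, 162 and 149 and did not pass at 72 h (log2 fold change -0.19, SE 0.10, edgeR adjusted p = 0.116).

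At the left end of the window 1 of 3 loops passed the test. ARRDC2, an arrestin domain gene, and IL12RB1, a receptor subunit for interleukins, are joined over 40 kb by one of the strongest loops, loop30774, with 251, 203, 243 and 218 contacts at 0 h, 183, 191, 226 and 230 at 6 h, and 190, 201, 174 and 212 at 72 h. The groups overlapped, and the change of -0.24 (SE 0.09, edgeR adjusted p = 0.0331) at 72 h was lost under 11 of 25 alternatives. Leaving out replicate 1 or 3 of either the 0 h or the 72 h group was enough to lose it. CCDC124 and IL12RB1 (loop30772) gave means of 89.3, 82.4 and 77.7 with no call. The loop30773 from KCNN1, a potassium channel gene, and ARRDC2 to an anchor at 18160001 had means of 45.7, 44.5 and 35.4; its 72 h libraries lay below all 0 h libraries, but the change of -0.36 did not pass (edgeR adjusted p = 0.0614). Just outside this edge, both loops that end at 17990001 had changes of -0.48 and -0.47 at 72 h.

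On the right, 2 of 6 loops passed the test at 72 h, both lower. The anchor at 18670001, at KLHL26, a kelch-like gene, takes part in 2 loops. The one from 18470001, loop30785, over 200 kb, gave 77.5, 63.6, 76.5 and 64.8 at 0 h, 83.3, 58.9, 65.1 and 65.1 at 6 h, and 47.8, 38.1, 46.8 and 45.5 at 72 h. Its libraries at 0 h and 6 h overlapped broadly, and those at 72 h lay below both. Its log2 fold change was -0.05 (SE 0.13) at 6 h and -0.64 (SE 0.14, edgeR adjusted p = 8.51e-05) at 72 h, and from 6 h to 72 h it was -0.59 (SE 0.14, edgeR adjusted p = 0.00112).

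The other, loop30788, from REX1BD to KLHL26 over 80 kb, gave 98.5, 82.6, 89.1 and 91.0 at 0 h, 118, 97.2, 109 and 115 at 6 h, and 127, 94.4, 108 and 109 at 72 h. Replicate 2 was the lowest at each time, and at 6 h and 72 h the other replicates were above the 0 h range. The change of 0.27 (SE 0.11, edgeR adjusted p = 0.0516) at 72 h did not pass. It passed as a gain under 7 of 25 alternatives, with values of 0.27 to 0.48: total-count scaling, scaling to chromosome 19 loops, the length correction, the replicate block, the batch term, and without 6 h replicate 2 or 72 h replicate 2. At 6 h it passed with the length correction (0.36, edgeR adjusted p = 0.0429). The log2 ratio of the first loop over the second went from -0.36 ± 0.11 (SD, n = 4) at 0 h to -0.69 ± 0.14 (SD, n = 4) at 6 h and -1.32 ± 0.09 (SD, n = 3) at 72 h, with no overlap between 0 h and 72 h. Of 10 pairs of loops that share an anchor, this one had the largest difference, -0.96, and the pair at PDE4C, CIST1 and IQCN came next with -0.64. In both, the exact permutation test gave p = 0.0571, the smallest that 4 against 3 values allow, and 0.286 after Benjamini-Hochberg adjustment over the 10 pairs.

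**Figure D3:**
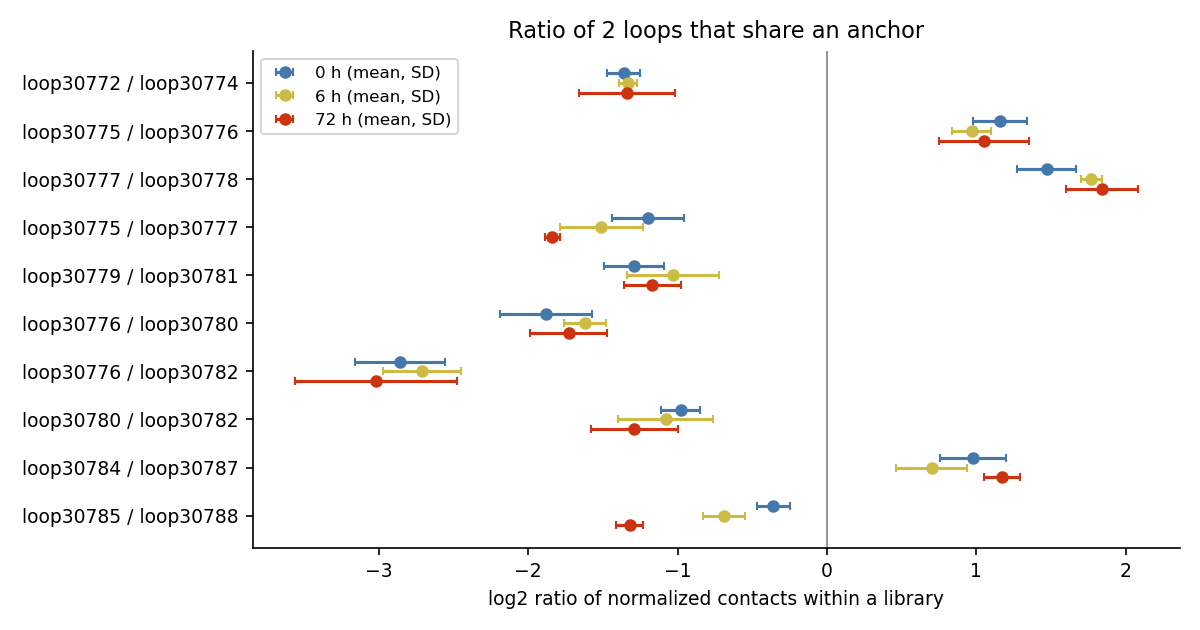
Log2 ratio of normalized counts of the loops that share an anchor, at 0, 6 and 72 h; points are means over the libraries of a time point and bars the SD. The pair at KLHL26 (loop30785 over loop30788) falls from -0.36 to -1.32, and the bars of the 3 pairs at SSBP4 (loop30776, loop30780 and loop30782) overlap between 0 h and 72 h.

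The longest loop, loop30783, spans 420 kb. It runs from ELL, an RNA polymerase elongation factor gene, to UPF1, CERS1 and GDF1 and had few contacts. Its libraries gave 19.6, 25.6, 18.8 and 28.4 at 0 h, 22.6, 27.1, 29.7 and 25.3 at 6 h, and 11.5, 18.1, 11.4 and 15.2 at 72 h. The 72 h libraries lay below all others. Its change at 72 h was -0.64 (SE 0.22, edgeR adjusted p = 0.0155) against 0 h. Against 6 h the change was -0.80 (SE 0.22, edgeR adjusted p = 0.00412). The call against 0 h was lost under 7 of 25 alternatives. These included scaling to chromosome 19 loops (edgeR adjusted p = 0.105) and each pair of replicate numbers alone (0.163 and 0.0881). The others were DESeq2 with or without independent filtering and leaving out 0 h replicate 4 or 72 h replicate 1. The call against 6 h was lost under 2, each pair of replicate numbers alone (edgeR adjusted p = 0.108 and 0.0501). The remaining loops gave no call. The shortest, loop30786 between 18480001 and 18510001, had means of 234, 210 and 214. Means were 68.1, 68.3 and 79.4 for loop30784, between 18460001 and REX1BD, and 34.5, 42.0 and 35.5 for loop30787, between REX1BD and 18840001. The first loop outside this edge, at 18780001, changed by -0.16.

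Counted over the window, 9 of 17 loops were lost and 0 gained at 72 h by the edgeR test, where 16.9% of all tested loops were lost and 16.7% gained. Among the other tested loops of chromosome 19, 34.9% were lost and 4.29% gained. The median log2 fold change was -0.36 in the window, -0.21 in the other loops of the chromosome and 0.01 over all tested loops. At 6 h, 3 loops were lost by edgeR (4.07% of all tested loops, 7.78% of the others on chromosome 19) and 0 gained (2.34% and 1.59%), with 6 at an unadjusted p under 0.05 in either direction. From 6 h to 72 h, edgeR called 5 lost (9.81% of all, 20.2% on chromosome 19) and 0 gained (10.7% and 1.27%), with 8 at an unadjusted p under 0.05. At 72 h against 0 h this unadjusted count was 12. DESeq2 called 0 gained in each comparison, while the 7 alternatives named above for the REX1BD to KLHL26 loop gave at least that gain at 72 h. With the length correction, 1 loop was gained and 1 lost at 6 h. Every 72 h library lay below every 0 h library in 9 of the 17 loops, against 14.1% of all tested loops and 25.7% of the others on chromosome 19. The 6 h libraries lay below the 0 h libraries in 2 loops (5.77% of all, 9.21% on chromosome 19), and the 72 h libraries below the 6 h libraries in 4 (9.43% and 19.4%).

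Since more loops of chromosome 19 were lost than gained, these counts were also made relative to the chromosome. When libraries were scaled to the other loops of chromosome 19, which moves the median of all tested loops to 0.21, 6 window loops were lost at 72 h and 2 gained. The 6 were the JUND to SSBP4, JUND to LSM4, PGPEP1 to SSBP4 and RAB3A to 18410001 loops and those from 18110001 to 18250001 and from 18470001 to KLHL26. The 2 gained were the loops from REX1BD to KLHL26 and from 18460001 to REX1BD. DESeq2 called the same 6 lost loops and 0 gained. Without 72 h replicate 1, edgeR also called these 6 lost, out of the 9.

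**Figure D4:**
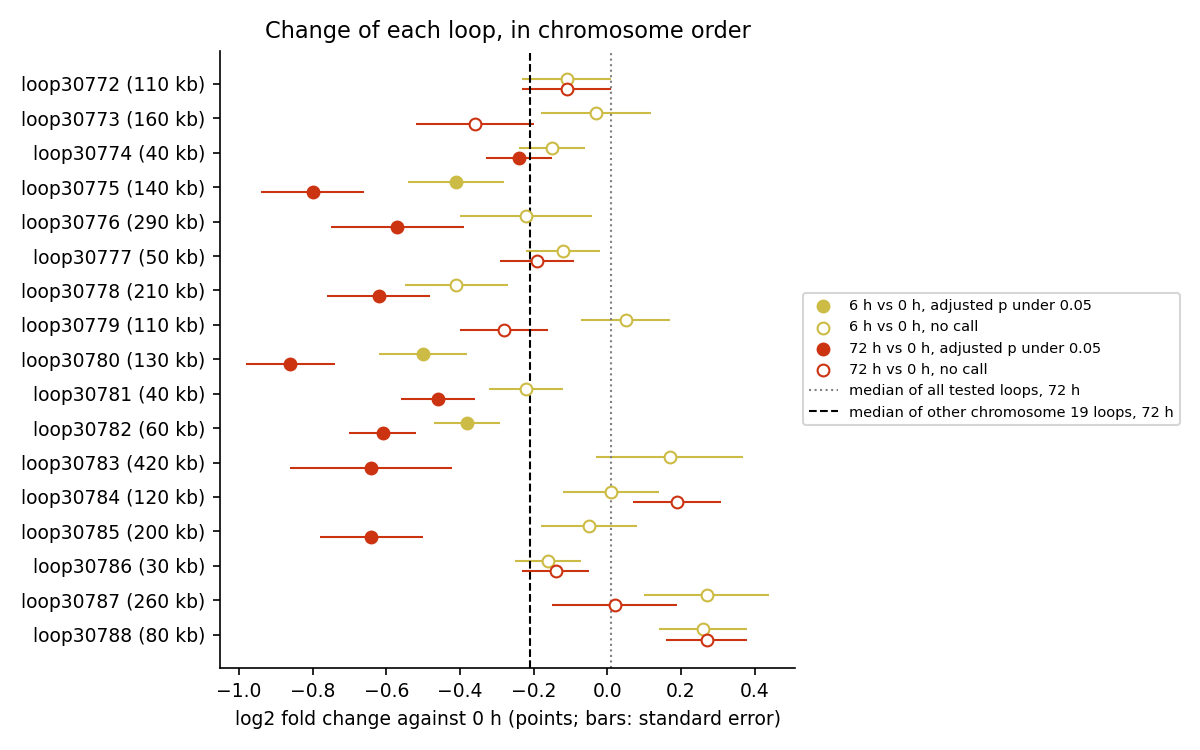
Log2 fold change of each of the 17 loops at 6 h and 72 h against 0 h, with its standard error, ordered along the chromosome, with filled points where edgeR's adjusted p was under 0.05; vertical lines give the medians of all tested loops and of other chromosome 19 loops. At 72 h the JUND to SSBP4 loop (loop30780) is lowest at -0.86 and the REX1BD to KLHL26 loop (loop30788) highest at 0.27.

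Contacts fall with distance, so each loop was also set beside loops of its own length. At 0 h the JUND to SSBP4 loop had 2.32 times the median count of 511 tested loops of 130 kb, the JUND to LSM4 loop 1.94 times that of 372 loops of 40 kb, and the PGPEP1 to SSBP4 loop 2.66 times that of its class, above 98.1% of it. At 72 h the change of the JUND to SSBP4 loop was below those of all 12 other chromosome 19 loops of 130 kb, whose median was -0.28. Among 630 other tested loops of the chromosome of any length, 9 had a lower change. The JUND to LSM4 loop was closer to its class: 3 of 12 chromosome 19 loops of 40 kb changed more, with a median of -0.28, and 126 of 630 over all lengths. Also called lost, loop30776 (-0.57) was near its class median on the chromosome of -0.55, with 4 of 9 lower. The same held for loop30774 (-0.24), with a median of -0.28 and 6 of 12 lower. For the other called loops the lower ones were 0 of 21 (loop30775), 2 of 20 (loop30778), 1 of 20 (loop30782), 0 of 7 (loop30783) and 0 of 15 (loop30785). The loop from REX1BD to KLHL26 was above all 30 other chromosome 19 loops of 80 kb.

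Shares of raw contacts, which need no scaling factor, moved in the same direction. The 17 loops held 1799 ± 124 (SD, n = 4) per 1000000 loop contacts at 0 h, 1647 ± 118 (SD, n = 4) at 6 h and 1456 ± 54 (SD, n = 3) at 72 h. Of the loop contacts of chromosome 19 they held 4.09% ± 0.11 (SD, n = 4), 3.91% ± 0.13 (SD, n = 4) and 3.85% ± 0.074 (SD, n = 3). Within the window, the 2 JUND loops held 17.6% ± 1.2 (SD, n = 4), 15.9% ± 1.4 (SD, n = 4) and 14.6% ± 0.21 (SD, n = 3) of the contacts. The last SD is small because 72 h replicates 3 and 4, the highest at 15.4% and the lowest at 13.9%, were averaged. For all 3 measures the 0 h and 72 h values did not overlap. Their exact permutation p (two-sided) was 0.0571, which is the smallest that 4 against 3 values allow, and 0.171 after Benjamini-Hochberg adjustment over 9 comparisons, so none passed 0.05. With 72 h replicates 3 and 4 kept apart the exact p was 0.0286 and the adjusted p 0.0857.

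**Figure D5:**
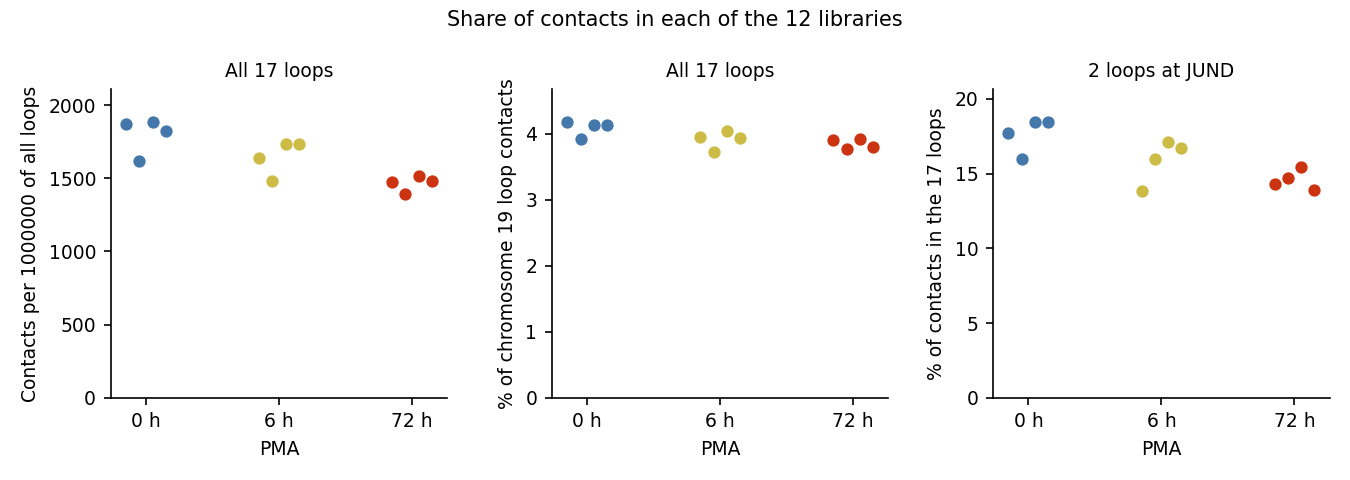
Share of raw contacts per library at 0, 6 and 72 h: the 17 loops per 1000000 loop contacts, as a percent of chromosome 19 loop contacts, and the JUND loops as a percent of the 17; points are the 12 libraries and each axis starts at 0. The mean share is lower at 72 h than at 0 h in each panel, with 17.6% against 14.6% for the JUND loops.

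The JUND to LSM4 loop, the JUND loop with more contacts, was set beside 630 tested loops of chromosome 19 outside the window by the Spearman correlation of normalized counts over the 12 libraries. The most alike joined 6520001 and 6620001 (rho 0.94), 16040001 and 16180001 at FAM32A (rho 0.93), and 44570001 and 44650001 (rho 0.92). They changed by -0.56, -0.47 and -0.59 at 72 h. All these loops were counted in the same 12 libraries across the time points, and these values are a description.

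Of 24 genes of the AP-1 and related leucine zipper families, 15 had an end in an anchor of a tested loop, 26 loops in all. At 72 h, 5 of these were gained and 5 lost by edgeR, against the 16.7% and 16.9% of all tested loops, and JUND accounts for 2 of the lost. The 24 loops of the other genes had a median of -0.06. JUN, the founding family member, had 4 loops, of which 2 were gained at 72 h, with log2 fold changes of 0.57 (means of 59.4 at 0 h and 87.7 at 72 h, edgeR adjusted p = 1.53e-04) and 0.40 (63.1 and 80.1, edgeR adjusted p = 0.0113). The difference between the JUN and JUND loops was not tested. A loop at MAF was also gained (0.97), and the other lost loops were at ATF7 (-0.66), MAFA (-0.42) and MAFK (-0.91). At 6 h the lost loops were the JUND to SSBP4 loop and 1 at FOSB (-0.44, edgeR adjusted p = 0.00386), a FOS family gene. No loop ended at JUNB, FOSL1, ATF2, BATF3, JDP2, MAFF, MAFG, NFE2L1 or NFE2L2.

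The authors' deposited table classed 2 of the 17 loops as lost, 15 as static and 0 as gained, of 503 lost and 1000 gained loops in all. In the authors' deposited table the lost pair were the JUND to SSBP4 loop, with a log2 fold change of -0.80 at 72 h and an adjusted p of 3.76e-05, and the loop from 18110001 to 18250001, with -0.72 and 0.00348. The authors' deposited table lists the PGPEP1 to SSBP4 loop with -0.56 and 4.64e-05 and the JUND to LSM4 loop with -0.39 and 0.0153, both as static. The adjusted p-values in the authors' deposited table come from a test over the time points. They do not test 72 h against 0 h alone, unlike the edgeR values above.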

How the data were processed

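Hi-C contacts of 42 samples were analysed from 1 deposited table of 33914 loops. The authors' raw counts fill 30 columns, which the file headers name by time and technical replicate. Juicer 1.5.6, DESeq2 and build hg38 are named in the submitters' processing notes; loop calling settings are not given in the sources used here. The authors also deposited log2 fold changes, an adjusted p-value of a test over the time points and a class, whose thresholds the file headers do not state. Other deposited values are anchor positions, counted here from 1.

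Columns were summed into 12 libraries. Loops passing edgeR's filterByExpr (minimum count 10, minimum total 15) numbered 24132, and 9782 were not tested. All tested loops were fitted in R 4.3.3 with edgeR 4.0.16 (TMM, quasi-likelihood test, no covariate, Benjamini-Hochberg adjustment over all tested loops, threshold 0.05). Lost and gained mean past this threshold and below or above 0. A prior count of 2 enters the log2 fold changes, and the SE is the change divided by the root of F. Counts include the local background of the anchor pair.

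Library shares and ratios were tested by exact permutation; the ratio test was chosen after seeing the data. The test was tried on simulated data. Alternatives were DESeq2 1.42.0, other scalings, a length correction (loess, span 0.3), no filter, a replicate block, a batch term, each pair of replicate numbers alone, summed replicates and leaving out each library. Loops were described one by one where JUND, LSM4 or SSBP4 has an end in an anchor, where any comparison passed the threshold, where mean counts were among the 3 highest, or at the window's edge; gene names at anchors are protein-coding genes with an end there, and some of them are not reported here. The loops and gene lists were chosen with earlier results of these data known. Deviations of same-numbered replicates correlated weakly (median 0.0276, against -0.0154 for other numbers), and 1 of 12 correlations passed 0.1. The numbers were therefore not taken to pair the samples in the main test. The lowest of the 12 was 0.0146, so a weak pairing remains possible, and the replicate block was run as an alternative.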

Additional observations from a re-analysis of the deposited data

How the results depend on the processing

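The count of 9 loops changed at 72 h against 0 h ranged from 6 to 12 over the alternatives run, and no loop that passed a test reversed its direction under any of them. Of the loops called at 72 h, 5 were called under all 25 alternatives: the JUND to SSBP4, PGPEP1 to SSBP4 and RAB3A to 18410001 loops and those from 18110001 to 18250001 and from 18470001 to KLHL26. The JUND to LSM4 loop was missed only within replicates 1 and 2, but its change of -0.46 shrank to -0.27 with the length correction and -0.25 with scaling to chromosome 19 loops. The count of 3 at 6 h became 0 within replicates 3 and 4 and 1 with DESeq2 without independent filtering, and ranged from 1 to 3 when 1 library was left out, with 1 without 0 h replicate 1 or 6 h replicate 2. The count of 5 from 6 h to 72 h became 3 with scaling to chromosome 19 loops, 2 within replicates 1 and 2, 2 within replicates 3 and 4 (neither among the 5), 2 with DESeq2 with or without independent filtering and 2 at a threshold of 0.01, and ranged from 2 to 5 when 1 library was left out, with 2 without 6 h replicate 3 or 72 h replicate 2 and 3 without 6 h replicate 4 or 72 h replicate 1. The cause was not tested. With the replicate block, 4 loops changed at 6 h, adding loop30778. At 72 h the block gave 10, adding loop30788 as a gain, and from 6 h to 72 h it gave 7, adding the JUND to LSM4 and PGPEP1 to SSBP4 loops; it lost none of the calls. At 72 h, calls were also added for loop30773, loop30777 and loop30779 with no filter on low counts, for loop30773 and loop30777 without 0 h replicate 2, and for loop30777 and loop30779 without 72 h replicate 3. Correlations of same-numbered deviations ran from 0.0146 to 0.124, with 1 of 12 over 0.1, and those of other numbers from -0.0738 to 0.0441. With replicates 3 and 4 summed at every time, the counts were 3 at 6 h, 9 at 72 h and 4 from 6 h to 72 h. DESeq2 gave no adjusted p for 1 loop at 6 h. The ELL loop had the lowest counts and the largest standard errors of the 17 loops.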
